A study of Mus musculus with 6 samples.

Results

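Glucocorticoid-responsive genes and the receptors that drive them were followed across the cell populations of the mouse striatum: Zbtb16, Klf9, Fkbp5, Sgk1, Tsc22d3, Per1 and Errfi1, and the receptor genes Nr3c1 and Nr3c2. These were 9 of the 24841 genes listed. They were chosen by measured values of this experiment, the higher Zbtb16 in endothelial-like nuclei and Klf9 in mural-like nuclei of Celsr3 heterozygous libraries, so those 2 classes are described here with no test. Striatum was dissected and flash-frozen, and 1 single-nucleus library was made for each biological replicate: 3 from wild-type mice and 3 from Celsr3 heterozygotes. Celsr3 encodes an adhesion receptor of the cadherin family. No age, sex, strain or agent is given in the labels, nor which part of Celsr3 the allele alters, and where replicates are not separate mice the p-values measure only the spread between libraries. The comparison asks how expression in the striatum differs between Celsr3 heterozygotes and wild-type mice. Every value below is a mean per nucleus of depth-corrected counts, so a level of 0.5 stands for 1 corrected count in 2 nuclei.

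Corticosterone, the main glucocorticoid of the mouse, enters cells and binds the glucocorticoid receptor encoded by Nr3c1 and the mineralocorticoid receptor encoded by Nr3c2, which binds the hormone more tightly. Chaperones hold the free receptors in the cytosol, and the hormone-bound receptors move to the nucleus and act at glucocorticoid response elements in the DNA. Genes that commonly rise include Fkbp5, a co-chaperone that lowers the receptor's affinity for hormone, and Sgk1, a kinase that regulates ion transport. Tsc22d3 encodes the leucine zipper protein GILZ, Klf9 and Zbtb16 encode zinc finger transcription factors, Per1 is a core clock gene, and Errfi1 encodes an inhibitor of the epidermal growth factor receptor.

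The bases before a start site are shown for Sgk1, which held the only glucocorticoid response element found among these genes, and for Fkbp5 and Errfi1, whose levels differed most steadily between the genotypes. RefSeq start-site windows on GRCm38.p6, from 250 bases before to 50 after each start, matched 7 of the 9 genes in 16 windows. Each sequence gives the bases before the start on the gene's own strand. Capitals mark the glucocorticoid response element GNACANNNTGTNC, the E-box CACGTG or the cAMP response element TGACGTCA, searched on both strands. The Sgk1 window is chr10:21993640-21993889 on the plus strand, inside the annotated span of the gene. The Fkbp5 window is chr17:28486150-28486399 on the minus strand and the Errfi1 window is chr4:150854820-150855069 on the plus strand, each also inside its gene's span.
Sgk1: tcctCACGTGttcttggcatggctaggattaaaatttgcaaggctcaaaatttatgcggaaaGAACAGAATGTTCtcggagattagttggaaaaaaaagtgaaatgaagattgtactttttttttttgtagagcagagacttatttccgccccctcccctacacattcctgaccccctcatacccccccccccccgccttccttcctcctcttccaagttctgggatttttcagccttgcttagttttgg
Fkbp5: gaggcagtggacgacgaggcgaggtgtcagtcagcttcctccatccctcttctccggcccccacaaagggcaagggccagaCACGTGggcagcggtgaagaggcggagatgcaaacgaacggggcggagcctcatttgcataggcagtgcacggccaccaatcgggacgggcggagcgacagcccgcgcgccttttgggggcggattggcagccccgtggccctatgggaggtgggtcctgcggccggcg
Errfi1: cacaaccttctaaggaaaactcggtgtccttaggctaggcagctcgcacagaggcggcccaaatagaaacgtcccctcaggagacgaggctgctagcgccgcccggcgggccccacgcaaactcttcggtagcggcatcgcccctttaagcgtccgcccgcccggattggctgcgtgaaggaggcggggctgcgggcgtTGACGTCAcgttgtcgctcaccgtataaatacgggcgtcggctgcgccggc

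The Sgk1 element starts at position -188 from the start site, in 1 of the gene's 6 windows, and an E-box starts at position -246. E-boxes were also found for Fkbp5, at position -169, and for Per1, at position -166. The cAMP response element of Errfi1 starts at position -51. Of all 32851 windows of that length, 0.475% held the glucocorticoid response element, 7.15% the E-box and 1.79% the cAMP response element. A match is a run of letters and not a measured site.

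The table held 48834 nuclei, of which 48025 were kept, 7612 to 8710 in each library. Genes detected per nucleus had a median of 2435.5 in wild-type replicate 1 and 2830 to 3004 in the other libraries. Barcodes occurring in more than 1 library numbered 274. Nuclei of 12 classes, called X-like from their markers, and 2 large unnamed clusters, numbered 3 and 5, were tested beside all nuclei together. Cluster 3 carried the oligodendrocyte markers together with a marker of committed oligodendrocyte precursors, and cluster 5 was led by Baiap3, Prlr, Zim1 and Glra3. MSN stands for medium spiny neuron, the main neuron of the striatum, of the direct (D1) or indirect (D2) pathway. Celsr3 itself stood at 0.0747, 0.1 and 0.108 in the wild-type and 0.0615, 0.0695 and 0.0648 in the heterozygous libraries over all nuclei, 69.2% of the wild-type mean (limma adjusted p = 0.456). It stood at 56.5% in D1 MSN-like nuclei (limma adjusted p = 0.127).

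The genes differed in where they were expressed, as the plot of levels by population shows. These levels were not tested, because the classes come from the same nuclei. The mineralocorticoid receptor gene Nr3c2 was highest among tested classes in astrocyte-like nuclei, at 2.72 ± 0.151 (mean ± SD of 6 libraries). GABAergic interneuron-like nuclei followed at 2.11 ± 0.28, and eccentric and D2 MSN-like nuclei at 1.94 ± 0.193 and 1.93 ± 0.0878, which lay within their spread. D1 MSN-like nuclei held 1.76 ± 0.0839, below D2 MSN-like nuclei in all 6 libraries. Oligodendrocyte-like nuclei held 0.663 ± 0.134 and committed oligodendrocyte precursor-like nuclei 0.245 ± 0.122. The glucocorticoid receptor gene Nr3c1 had another order. It was highest in endothelial-like nuclei at 1.47 ± 0.241 and microglia-like nuclei at 1.37 ± 0.0828, which lay within their spread. Astrocyte-like, glutamatergic neuron-like and oligodendrocyte-like nuclei held 1.15 ± 0.0483, 1.13 ± 0.181 and 1.1 ± 0.0732, D2 and D1 MSN-like nuclei 0.675 ± 0.0602 and 0.657 ± 0.0563, and neuroblast-like nuclei 0.281 ± 0.0835. Nr3c2 thus had a higher mean level in D1 and D2 MSN-like than in oligodendrocyte-like nuclei, and Nr3c1 the reverse. Shares of nuclei with a value above 0 kept that order for Nr3c2: 34.1% (oligodendrocyte-like), 73.6% (D1) and 76.45% (D2). For Nr3c1 they did not reverse, at 46.3% (oligodendrocyte-like), 47.4% (D1) and 48.2% (D2). Its share was 46.2% for the endothelial-like, 43% for the microglia-like and 65.3% for the glutamatergic class.

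**Figure D1:**
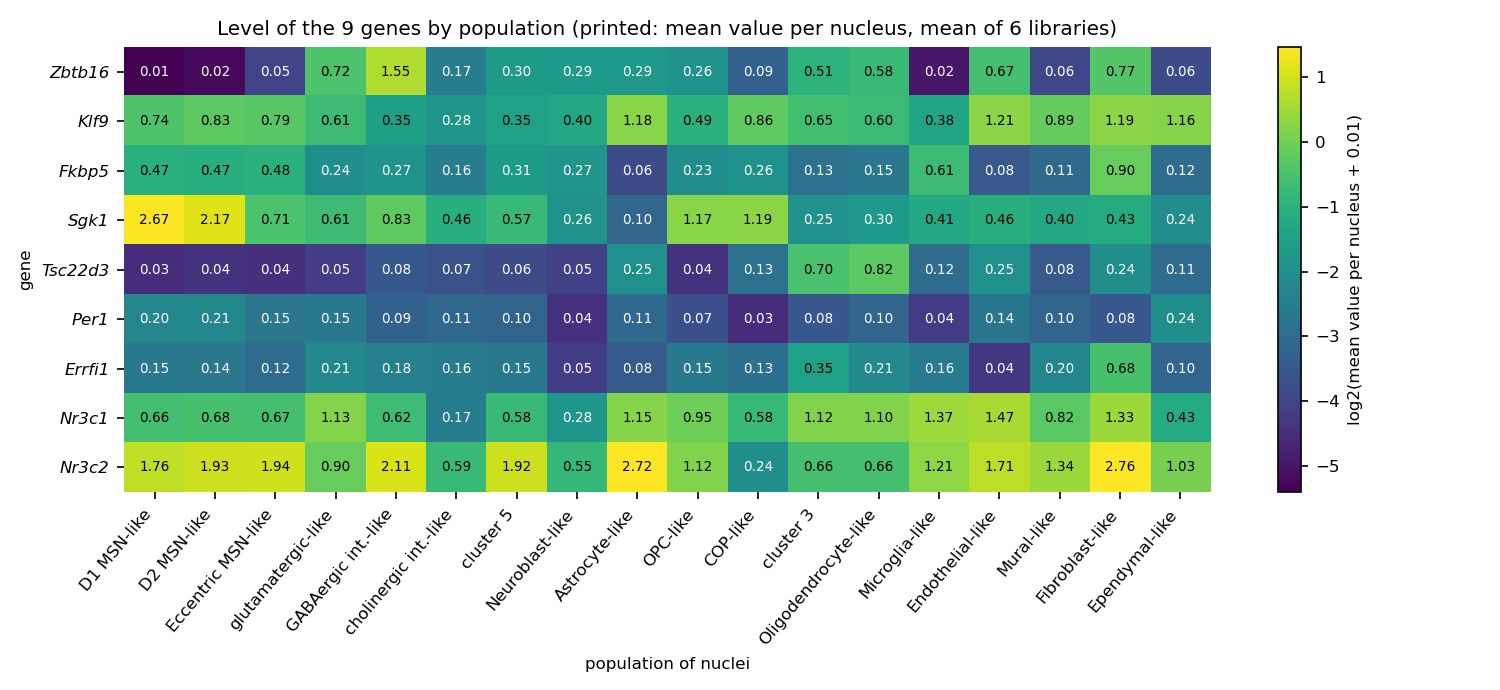
Level of the 9 genes in 18 populations of nuclei; the number in each cell is the mean value per nucleus averaged over the 6 libraries and the colour is log2 of that value plus 0.01. Sgk1 is brightest in D1 and D2 MSN-like nuclei, Tsc22d3 in oligodendrocyte-like nuclei and cluster 3, and Zbtb16 is darkest in D1 and D2 MSN-like nuclei.

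Among the target genes, Sgk1 was highest in D1 MSN-like nuclei (2.67 ± 0.113), then in D2 MSN-like nuclei (2.17 ± 0.154), and D1 lay above D2 in all 6 libraries. Precursors of the oligodendrocyte lineage followed at 1.19 ± 0.271 (committed) and 1.17 ± 0.135 (OPC-like, for oligodendrocyte precursor cell), within their spread, and astrocyte-like nuclei were lowest at 0.104 ± 0.0158. Tsc22d3 was highest in oligodendrocyte-like nuclei (0.82 ± 0.19) and cluster 3 (0.698 ± 0.165), within their spread. It was lowest in D1 MSN-like nuclei (0.0341 ± 0.00609). Eccentric MSN-like, D2 MSN-like and OPC-like nuclei held 0.0355 ± 0.0171, 0.037 ± 0.011 and 0.0374 ± 0.012, within their spread. Zbtb16 was highest in GABAergic interneuron-like nuclei at 1.55 ± 0.243, where 54.2% of nuclei had a value above 0. In D1 and D2 MSN-like nuclei Zbtb16 stood at 0.0136 ± 0.00349 and 0.0161 ± 0.0037, with 1.3% and 1.4% of nuclei above 0. Those 2 classes had the lowest mean levels of Zbtb16, and microglia-like nuclei had a like share above 0, at 1.23%.

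By mean level, Fkbp5 was highest among tested classes in microglia-like nuclei (0.607 ± 0.167), followed by eccentric, D1 and D2 MSN-like nuclei (0.481 ± 0.0989, 0.473 ± 0.0837 and 0.466 ± 0.0843), all within their spread. The share of nuclei above 0 had another order, at 25.4% in microglia-like and 35%, 37.3% and 36.1% in those MSN-like nuclei. Astrocyte-like nuclei held only 0.0599 ± 0.0218 of Fkbp5, beside the highest Nr3c2 of any tested class. By mean level, Klf9 was highest in endothelial-like (1.21 ± 0.198), fibroblast-like (1.19 ± 0.225), astrocyte-like (1.18 ± 0.109) and ependymal-like nuclei (1.16 ± 0.253), all within their spread, and lowest among classes tested for it in GABAergic interneuron-like nuclei (0.345 ± 0.0414). Its share of nuclei above 0 was 41.2% in endothelial-like nuclei, below the 52.1% of D1 and 55.2% of D2 MSN-like nuclei. Among populations tested for it, Per1 ran from 0.207 ± 0.0519 in D2 and 0.204 ± 0.0568 in D1 MSN-like nuclei, within their spread, to 0.101 ± 0.0348 in oligodendrocyte-like nuclei and 0.0767 ± 0.0298 in cluster 3. Errfi1 was highest in cluster 3 (0.351 ± 0.0952) and stood at 0.211 ± 0.0613 in oligodendrocyte-like and 0.206 ± 0.0544 in glutamatergic neuron-like nuclei. Fibroblast-like nuclei, of which the libraries held only 15 to 98, had higher levels of Fkbp5 (0.897 ± 0.659) and Errfi1 (0.679 ± 0.227) than any tested class. Fkbp5 separated by genotype there, at 0.467, 0.407 and 0.6 in the wild-type and 2.14, 0.652 and 1.11 in the heterozygous libraries, and so did Nr3c2, at 1.8, 1.63 and 1.7 and then 5.93, 2.57 and 2.91. The share of all genes that separated in fibroblast-like nuclei was not counted, so how common such a separation is there is not known.

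Likeness was the Pearson correlation of log2 levels over the 14 classes with enough nuclei, given as a description. The classes share the 6 libraries. Genes most like Tsc22d3 were Lap3 (r = 0.945), Neat1 (0.929) and Gpr37 (0.918), those most like Sgk1 were Rap1gap (0.886), Plppr1 (0.882) and Brinp1 (0.855), and those most like Nr3c2 included Arhgap26 (0.86) and Gabra2 (0.845). Fkbp5 was most like Cebpz (0.903), Slc30a7 (0.897) and Gm22146 (0.882), the last of which overlaps Fkbp5 on the opposite strand, where reads of the pair cannot be told apart unless counting used strand. Nr3c1 was most like Gm8797 (0.812), Ppp2r5a (0.808) and Vti1a (0.802), and Klf9 was most like Syne1 (0.895), Ppp2r5a (0.831) and Mgst1 (0.812). Ppp2r5a is thus among the 3 genes most like each of Klf9 and Nr3c1, which had r = 0.574 with each other. Zbtb16 was most like Laptm4b (0.848), Grik1 (0.844) and Hus1 (0.842), Per1 was most like Ccpg1os (0.894), Stard10 (0.883) and Srf (0.88), and Errfi1 was most like Zfp119b (0.93), Prps2 (0.895) and Pramef8 (0.857). Among the 9 genes, the highest correlations were those of Per1 with Nr3c2 (0.684) and of Sgk1 with Fkbp5 (0.627), and the lowest were those of Tsc22d3 with Sgk1 and with Fkbp5 (-0.581 and -0.58).

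Between the genotypes, none of the 9 genes passed an adjusted p of 0.05 in all nuclei or in any of the 13 other populations where at least 1 of them passed the filter on low values (limma, Benjamini-Hochberg over all genes of the population). Fkbp5 and Errfi1 came nearest, with every heterozygous library above every wild-type library in all nuclei together and in several classes. None passed that filter in cholinergic interneuron-like nuclei. In all nuclei 2 of the 9 had an unadjusted p under 0.05, as did 9.92% of all genes, and 7 had a heterozygous mean above the wild-type mean, at a median log2 difference of 0.11. Over all 14401 genes tested there, 69.2% were higher in heterozygous libraries and the median was 0.07, so most genes leaned the same way. Of all genes tested, the share called was 0.0224% for D1 MSN-like nuclei, 0.00784% for the D2 class and 0.00795% for the glutamatergic class. It was 0% over all nuclei and in each of the other 11 populations. Outside all nuclei, 93 pairs of gene and population passed the filter, of which 17 had an unadjusted p under 0.05, 15 with heterozygous libraries higher and 2 lower. The 15 include Errfi1 in cluster 5, which passed the filter only through the heterozygous libraries, where it was higher. Over all genes of the same populations, 2.9% of pairs had such a p with heterozygous libraries higher and 3.48% lower. The 9 genes were chosen with such differences known and the populations share the 6 libraries, so no test rests on these counts.

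Fkbp5, the co-chaperone of receptor feedback, stood at 0.262, 0.265 and 0.238 in wild-type replicates 1, 2 and 3 and at 0.332, 0.391 and 0.336 in heterozygous replicates 1, 2 and 3 over all nuclei. Each heterozygous library exceeded each wild-type one. Its heterozygous mean came to 139% of the wild-type mean, a log2 difference of 0.45 ± 0.0896 (SE) that did not pass the adjustment (limma adjusted p = 0.444). Of the 9 genes, Fkbp5 and Errfi1 had groups that did not overlap, both higher, beside 14.9% of all genes tested. A mean over all nuclei mixes the share of each class with its level, and these cannot be told apart in it. With equal weight for the 31 clusters that had enough nuclei in every library, the Fkbp5 difference was 0.50 (limma adjusted p = 0.0601). That p-value was the lowest in a range of 0.0601 to 0.868 over the alternatives.

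The medium spiny neurons gave an Fkbp5 difference of like size. D1 MSN-like nuclei held 0.442, 0.386 and 0.383 in the wild-type and 0.489, 0.562 and 0.574 in the heterozygous libraries. D2 MSN-like nuclei held 0.43, 0.373 and 0.392 and then 0.481, 0.529 and 0.592. The groups did not overlap in either class, and both heterozygous means were 134% of the wild-type mean. The 9 microglia markers, none at 0, moved the opposite way in these nuclei, from a summed level of 1.03 to 1.12 in wild-type to 0.953 to 0.984 in heterozygous libraries in D1 and from 0.896 to 0.945 to 0.808 to 0.866 in D2 MSN-like nuclei. Their part in the Fkbp5 difference was not tested. The log2 differences were 0.42 ± 0.0965 in D1 (limma adjusted p = 0.233) and 0.41 ± 0.101 in D2 MSN-like nuclei (limma adjusted p = 0.27). Fkbp5 passed the threshold in D1 MSN-like nuclei with array weights (limma adjusted p = 0.0177) and without wild-type replicate 1 (0.0353), within a range of 0.0177 to 0.662 over the alternatives, and in D2 MSN-like nuclei with array weights (0.0333, range 0.0333 to 0.684).

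Oligodendrocyte-like nuclei had low Fkbp5, at 0.115, 0.101 and 0.0916 in the wild-type and 0.14, 0.254 and 0.177 in the heterozygous libraries. Here too the groups did not overlap, and the log2 difference was 0.80 ± 0.205 (limma adjusted p = 0.596). Cluster 3, which also carried the oligodendrocyte markers, held 0.159, 0.0678 and 0.0916 and then 0.0785, 0.19 and 0.188. Its groups overlapped, with heterozygous replicate 1 below wild-type replicates 1 and 3, at a log2 difference of 0.46 ± 0.343. In microglia-like nuclei, the tested class of highest level, Fkbp5 stood at 0.709, 0.513 and 0.406 and then 0.504, 0.868 and 0.642. Those groups overlapped, with a log2 difference of 0.30 ± 0.214 (limma adjusted p = 0.933) that ran from 0.10 to 0.51 with 1 library left out. Across the 12 populations where Fkbp5 was tested, the heterozygous mean was the higher in 11, and the highest library was heterozygous replicate 2 in 7 and replicate 3 in 5. The log2 differences ran up to the 0.80 of oligodendrocyte-like nuclei, with 0.17 in cluster 5 (0.06 to 0.30 with 1 library left out) and 0.13 in GABAergic interneuron-like nuclei, where it turned below 0 without wild-type replicate 2 or heterozygous replicate 2. Neuroblast-like nuclei were the exception, at 0.298, 0.322 and 0.26 and then 0.148, 0.283 and 0.325, a log2 difference of -0.28 ± 0.315. That direction rested on heterozygous replicate 1, with 61 such nuclei, and turned to 0.05 without it.

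Errfi1, the inhibitor of epidermal growth factor receptor signalling, stood at 0.152, 0.144 and 0.14 in the wild-type and 0.166, 0.165 and 0.209 in the heterozygous libraries over all nuclei. The groups did not overlap, with heterozygous replicate 3 the highest, at a log2 difference of 0.29 ± 0.106 (limma adjusted p = 0.476) that was 0.18 without that library. D1 MSN-like nuclei held 0.133, 0.141 and 0.129 and then 0.159, 0.169 and 0.189, a log2 difference of 0.33 ± 0.108 (limma adjusted p = 0.382). Oligodendrocyte-like nuclei, the named class of highest level among those tested, held 0.193, 0.144 and 0.149 and then 0.249, 0.227 and 0.302. Heterozygous libraries were again all above wild-type ones in both classes, and the oligodendrocyte-like difference was 0.65 ± 0.163 (limma adjusted p = 0.596).

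In astrocyte-like nuclei Errfi1 stood at 0.0693, 0.0749 and 0.0689 in the wild-type and 0.0886, 0.0993 and 0.0868 in the heterozygous libraries, a log2 difference of 0.32 ± 0.141 (limma adjusted p = 0.772). Cluster 5 held 0.107, 0.139 and 0.1 and then 0.161, 0.18 and 0.224, a difference of 0.66 ± 0.209 (limma adjusted p = 0.569). Neither pair of groups overlapped. Errfi1 passed the filter in cluster 5 only through the heterozygous libraries, where it was higher, so that separation and its p-value are a description. Cluster 5 had 317, 101 and 259 nuclei in the wild-type and 87, 991 and 639 in the heterozygous libraries. Glutamatergic neuron-like nuclei held 0.161, 0.188 and 0.16 and then 0.179, 0.272 and 0.278, which overlapped, at 0.47 ± 0.184 (limma adjusted p = 0.899). Errfi1 shares its locus with 1700045H11Rik on the opposite strand, and strand use in counting is not given in the sources used here. Cluster 3, its highest population, held 0.302, 0.316 and 0.325 and then 0.34, 0.282 and 0.541, at 0.24 ± 0.204 (limma adjusted p = 1). Those groups overlapped, with heterozygous replicate 2 below every wild-type library, and without heterozygous replicate 3 the difference turned to -0.019. Microglia-like nuclei were the only tested population with a lower heterozygous mean, at 0.205, 0.152 and 0.148 and then 0.163, 0.137 and 0.142, a difference of -0.17 ± 0.206 (limma adjusted p = 0.956) that was -0.03 without wild-type replicate 1. The highest library for Errfi1 was heterozygous replicate 3 in 6 of the 8 populations where it was tested.

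**Figure D2:**
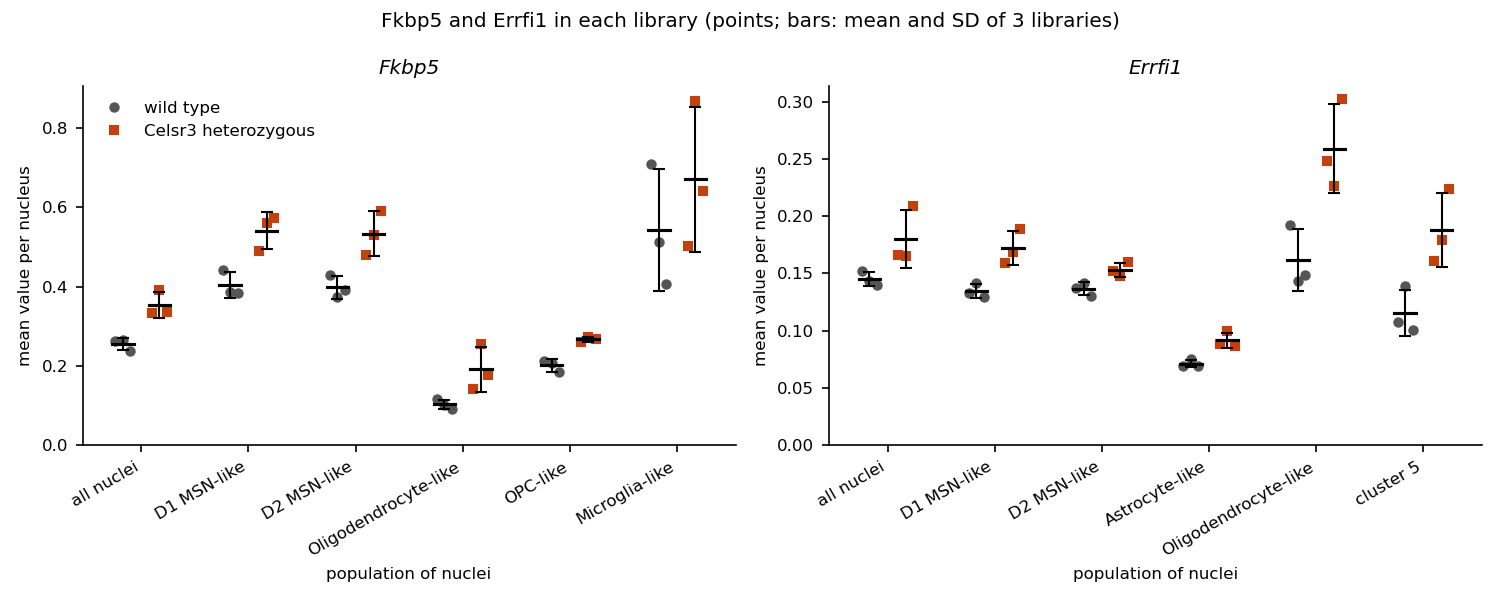
Fkbp5 and Errfi1 as mean value per nucleus in each library, with wild-type libraries as circles, heterozygous libraries as squares, and bars for the mean and SD of 3 libraries. For Fkbp5 the groups separate in every population drawn except microglia-like nuclei, and for Errfi1 in all those drawn. The populations were chosen. Outside all nuclei the groups separated in 4 of the 12 populations tested for Fkbp5 and 5 of the 8 tested for Errfi1. All of those are drawn, and most that overlapped are not. The 5 for Errfi1 include cluster 5, where it passed the filter only through the heterozygous libraries, in which it was higher.

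The counts of genes whose groups did not overlap were read against the same share over all genes. In D1 MSN-like nuclei 2 of 8 tested were higher without overlap (Fkbp5 and Errfi1, background 11.6%) and 1 was lower (Nr3c1, background 5.12%). In D2 MSN-like nuclei the same pair of genes was higher without overlap, of 8 tested (background 9.03%). Errfi1 there stood at 0.137, 0.142 and 0.131 and then 0.152, 0.148 and 0.16, a log2 difference of 0.16 ± 0.106. Oligodendrocyte-like nuclei had 2 of 9 (background 5.94%), astrocyte-like nuclei 1 of 9 (7.31%), OPC-like nuclei 3 of 6 (6.77%), cluster 3 had 1 of 9 (5.6%) and cluster 5 had 1 of 8 (5.71%). Eccentric MSN-like nuclei had 1 of 5 higher (5.13%), committed oligodendrocyte precursor-like nuclei 1 of 3 higher (5.56%), and neuroblast-like nuclei 1 of 6 higher (4.69%) and 1 lower (4.71%). No tested gene was apart in either direction in glutamatergic neuron-like (0 of 9, background 6.45% higher), microglia-like (0 of 7, 4.71%) or GABAergic interneuron-like nuclei (0 of 6, 7.08%). These counts are small, and a gene counted in several classes comes from the same 6 libraries. The OPC-like count rests in part on heterozygous replicate 1, which held only 27 such nuclei. They include Errfi1 in cluster 5 and Nr3c1 in neuroblast-like nuclei, which passed the filter only through the heterozygous libraries, where they were higher.

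Summed marker levels separated by genotype in several of these populations too. Lower in heterozygous libraries were microglia markers in cluster 5 (1.1 to 1.31 in the wild-type, then 0.931 to 0.996) and mural markers there (0.337 to 0.375, then 0.28 to 0.321). So were committed oligodendrocyte precursor markers in astrocyte-like nuclei (1.93 to 2.05, then 1.54 to 1.91) and endothelial markers there (0.162 to 0.176, then 0.133 to 0.151). Neuroblast-like nuclei had lower astrocyte markers (12.1 to 12.7, then 10.4 to 11.1) and lower mural markers (0.124 to 0.191, then 0.115 to 0.12), and committed oligodendrocyte precursor-like nuclei had lower OPC markers (18.03 to 18.54, then 11.6 to 16.9) and eccentric MSN markers (0.92 to 1.06, then 0.67 to 0.786). Eccentric MSN-like nuclei had lower D2 MSN markers (1.82 to 2.33, then 1.52 to 1.8) and higher endothelial markers (0.181 to 0.268, then 0.273 to 0.36). Macrophage markers in OPC-like nuclei, 1 of 6 at 0, were higher, from 0 to 0.0159 in the wild-type to 0.0171 to 0.148 in the heterozygous libraries. The part of these markers in the differences of the 9 genes was not tested.

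**Figure D3:**
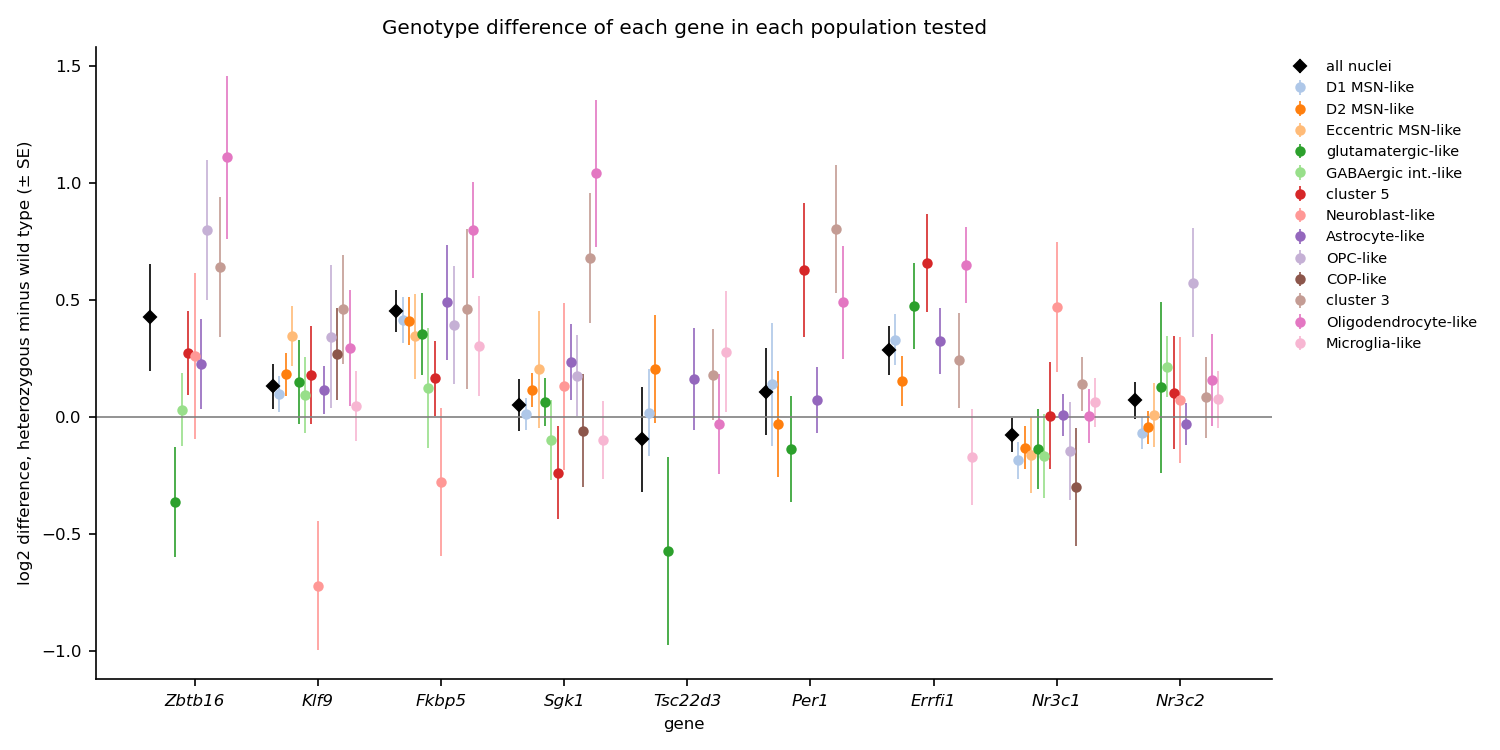
Log2 difference of heterozygous minus wild-type libraries with its standard error for each gene in each population that passed the filter, with all nuclei as black diamonds. Fkbp5 and Errfi1 lie above 0 in nearly all populations, Klf9 lies below 0 in neuroblast-like nuclei only, and oligodendrocyte-like nuclei give the highest points for Zbtb16, Sgk1 and Fkbp5.

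Zbtb16, the transcription factor also called PLZF, stood at 0.504, 0.261 and 0.133 in the wild-type and 0.914, 1.58 and 0.653 in the heterozygous libraries in endothelial-like nuclei, of which there were 844. This is the contrast from which the genes were picked and has no test. Heterozygous libraries all lay above wild-type ones, with means of 1.05 ± 0.477 and 0.299 ± 0.188 (SD, n = 3 each) and a log2 difference of 1.87. Zbtb16 was 1 of 6 genes past the filter in endothelial-like nuclei whose groups did not overlap, where 5.89% of all genes were higher without overlap. With 1 library left out the difference ran from 1.41 to 2.33.

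All 10 endothelial markers were detected in the endothelial-like nuclei, and their summed level was 57.1 to 60.4 in wild-type and 49.7 to 53.1 in heterozygous libraries, which did not overlap. The 9 oligodendrocyte markers summed to 27.4 to 31.6 and 16.4 to 39.2, the 10 mural markers to 3.39 to 5.57 and 2.73 to 3.81, and the 7 fibroblast markers to 0.0236 to 0.166 and 0.116 to 0.353, with none of these markers at 0. Their part in the Zbtb16 difference was not tested. Fibroblast-like nuclei held Zbtb16 at 0.4, 0.37 and 0.267 in the wild-type and 1.1, 1.43 and 1.03 in the heterozygous libraries, too few nuclei for a test. The share of all genes that separated in that class was not counted. Mural-like nuclei held little Zbtb16 outside heterozygous replicate 1, at 0.0167, 0.0185 and 0 and then 0.25, 0 and 0.0526.

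Among the populations tested for it, Zbtb16 differed most in oligodendrocyte-like nuclei, at 0.56, 0.265 and 0.258 in the wild-type and 0.729, 1.17 and 0.477 in the heterozygous libraries. Wild-type replicate 1 overlapped the heterozygous range, and the log2 difference of 1.11 ± 0.348 did not pass the adjustment (limma adjusted p = 0.747). Cluster 3, which also carried the oligodendrocyte markers, held 0.598, 0.287 and 0.298 and then 0.564, 0.878 and 0.405. Wild-type replicate 1 lay above heterozygous replicates 1 and 3 there, at 0.64 ± 0.3 (limma adjusted p = 0.99). OPC-like nuclei held 0.165, 0.226 and 0.155 and then 0.333, 0.422 and 0.233, which did not overlap, at 0.80 ± 0.3 (limma adjusted p = 0.899). Heterozygous replicate 1 held only 27 of these OPC-like nuclei, and the difference ran from 0.61 to 1.02 with 1 library left out. Heterozygous replicate 2 was the highest and wild-type replicate 3 the lowest library in endothelial-like, oligodendrocyte-like and OPC-like nuclei alike. In GABAergic interneuron-like nuclei, where Zbtb16 was highest, the libraries stood at 1.54, 1.24 and 1.84 and then 1.83, 1.38 and 1.48. That log2 difference was 0.03 ± 0.157 (limma adjusted p = 0.992) and turned below 0 without wild-type replicate 2 or heterozygous replicate 1. Of the 8 populations tested for Zbtb16, 1 had a lower heterozygous mean, the glutamatergic neuron-like nuclei. They held 0.88, 0.966 and 0.594 and then 0.551, 0.504 and 0.847, which overlapped, at -0.36 ± 0.236 (limma adjusted p = 0.942). Over all nuclei Zbtb16 stood at 0.334, 0.171 and 0.243 and then 0.335, 0.372 and 0.28, a log2 difference of 0.43 ± 0.228 (limma adjusted p = 0.528) that was 0.19 without wild-type replicate 2 and 0.65 without wild-type replicate 1.

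Klf9, a zinc finger factor induced by glucocorticoids and thyroid hormone, stood at 0.667, 0.63 and 0.596 in the wild-type and 1.18, 0.978 and 1.28 in the heterozygous libraries in the 304 mural-like nuclei. The groups did not overlap, with means of 0.631 ± 0.0355 and 1.14 ± 0.153 (SD, n = 3 each) and a log2 difference of 0.84, given with no test because Klf9 was picked there. Of the 3 genes past the filter in mural-like nuclei, Klf9 and Nr3c2 were higher without overlap, beside 6.6% of all genes tested. The 10 mural markers summed to 39.5 to 42.8 in the wild-type and 34.2 to 40.5 in the heterozygous libraries. The 9 oligodendrocyte markers summed to 29.7 to 33.8 and 17.4 to 45.2 there. The 10 GABAergic interneuron markers, 1 of them at 0, summed to 1.27 to 1.54 in the wild-type and 1.58 to 2 in the heterozygous libraries, higher without overlap as Klf9 was. The part of these markers in the Klf9 difference was not tested. In endothelial-like nuclei Klf9 stood at 1.18, 0.949 and 1.08 and then 1.36, 1.5 and 1.17, which overlapped, at a log2 difference of 0.33.

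**Figure D4:**
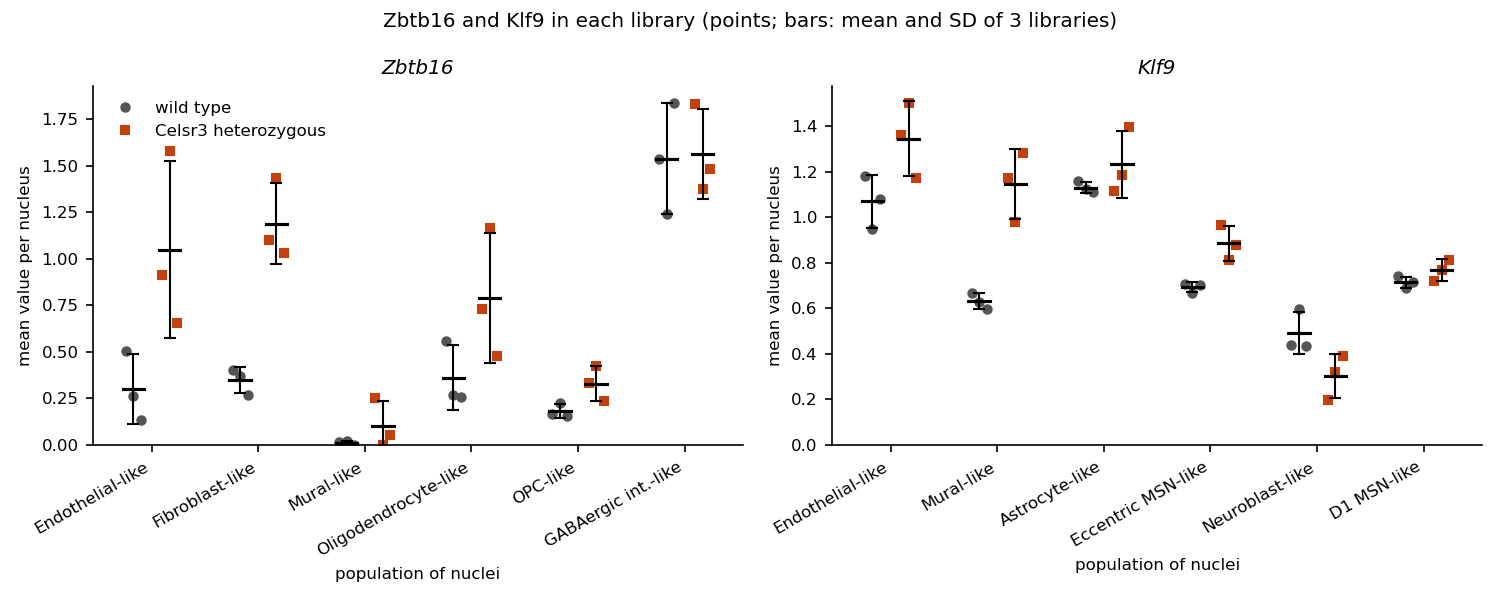
Zbtb16 and Klf9 as mean value per nucleus in each library, with wild-type libraries as circles, heterozygous libraries as squares, and bars for the mean and SD of 3 libraries. Zbtb16 separates by genotype in endothelial-like, fibroblast-like and OPC-like nuclei, and Klf9 is higher in heterozygous libraries in mural-like and eccentric MSN-like nuclei and lower in neuroblast-like nuclei. Fibroblast-like nuclei were too few for a test, and the share of all genes that separated there was not counted.

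Outside those classes Klf9 was tested in 13 populations, which share the 6 libraries, and its heterozygous mean was the higher in 12 and the lower in neuroblast-like nuclei. Of all genes, 47.4% to 65% were higher in these populations. Eccentric MSN-like nuclei held 0.708, 0.667 and 0.702 in the wild-type and 0.965, 0.81 and 0.88 in the heterozygous libraries, a log2 difference of 0.35 ± 0.13 (limma adjusted p = 0.874). Neuroblast-like nuclei held 0.438, 0.598 and 0.435 and then 0.197, 0.319 and 0.389, a difference of -0.72 ± 0.277 (limma adjusted p = 0.991) that ran from -0.92 to -0.45 with 1 library left out, the latter without heterozygous replicate 1. Neither pair of groups overlapped, and the directions were opposite. Over all nuclei Klf9 stood at 0.773, 0.686 and 0.616 and then 0.76, 0.714 and 0.794, which overlapped, at 0.13 ± 0.0967 (limma adjusted p = 0.614), or 0.0523 to 0.21 with 1 library left out.

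Sgk1, the kinase gene with the response element shown above, stood at 2.75, 2.55 and 2.67 in the wild-type and 2.52, 2.79 and 2.75 in the heterozygous libraries in D1 MSN-like nuclei, its highest class. The groups overlapped almost wholly, at a log2 difference of 0.01 ± 0.0682 (limma adjusted p = 0.957) whose sign turned under 5 of the alternatives. Over all nuclei the libraries stood at 0.973, 1.29 and 1.04 and then 1.12, 1.17 and 1.11, a difference of 0.05 ± 0.11 (limma adjusted p = 0.85) that turned below 0 without wild-type replicate 1. Oligodendrocyte-like nuclei had far less Sgk1, at 0.286, 0.146 and 0.144 and then 0.247, 0.42 and 0.552. Heterozygous replicates 2 and 3 were the highest there while replicate 1 lay under wild-type replicate 1, at 1.04 ± 0.315 (limma adjusted p = 0.734). Cluster 3 gave 0.283, 0.136 and 0.158 and then 0.235, 0.26 and 0.435, at 0.68 ± 0.277 (limma adjusted p = 0.942), or 0.42 without heterozygous replicate 3.

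The oligodendrocyte markers themselves moved between libraries of these nuclei. Their summed level in oligodendrocyte-like nuclei was 126, 148 and 141 in the wild-type and 112, 114 and 153 in the heterozygous libraries, and 5 choroid plexus markers summed to 2.29, 1.76 and 0.272 and then 0.2, 0.191 and 2.49. The 10 GABAergic interneuron markers summed to 1.13 to 1.32 in the wild-type and 1.28 to 1.39 in the heterozygous libraries, with none at 0. The part of these markers in the Zbtb16 and Sgk1 differences was not tested.

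Per1, the clock gene, stood at 0.141, 0.28 and 0.213 in the wild-type and 0.162, 0.248 and 0.198 in the heterozygous libraries in D2 MSN-like nuclei, its highest tested class. Replicate 1 was the lowest of each genotype, and the log2 difference of -0.03 ± 0.228 (limma adjusted p = 0.984) turned above 0 under 4 of the alternatives, among them leaving out wild-type replicate 2 or heterozygous replicate 1. In cluster 3 Per1 stood at 0.0813, 0.0329 and 0.0503 and then 0.0872, 0.0948 and 0.114. Those groups did not overlap, at 0.80 ± 0.274 (limma adjusted p = 0.808). The 10 astrocyte markers, none at 0, moved the opposite way in cluster 3, from 6.82 to 7.74 in the wild-type to 6.42 to 6.65 in the heterozygous libraries, and their part in the Per1 difference was not tested. Over all nuclei Per1 stood at 0.0991, 0.169 and 0.128 and then 0.121, 0.152 and 0.149, a difference of 0.11 ± 0.184 (limma adjusted p = 0.809) that turned below 0 without wild-type replicate 1.

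Tsc22d3, the GILZ gene, stood at 0.701, 0.931 and 0.821 in the wild-type and 0.614, 0.718 and 1.14 in the heterozygous libraries in oligodendrocyte-like nuclei. Heterozygous libraries spanned the whole range, holding both the lowest and the highest value, at a log2 difference of -0.03 ± 0.213 (limma adjusted p = 1). Over all nuclei they stood at 0.237, 0.194 and 0.209 and then 0.141, 0.196 and 0.281, at -0.09 ± 0.224 (limma adjusted p = 0.869). Without heterozygous replicate 1 both differences turned above 0, to 0.15 and 0.14. No class gave an unadjusted p under 0.05 for Tsc22d3.

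The glucocorticoid receptor gene Nr3c1 stood at 0.653, 0.741 and 0.708 in the wild-type and 0.614, 0.595 and 0.634 in the heterozygous libraries in D1 MSN-like nuclei. All heterozygous libraries lay below all wild-type ones, 87.7% of the mean, at a log2 difference of -0.18 ± 0.078 (limma adjusted p = 0.485). In endothelial-like nuclei, its highest class by mean level, the libraries overlapped at 1.15, 1.83 and 1.61 and then 1.43, 1.3 and 1.52. Over all nuclei Nr3c1 stood at 0.929, 0.905 and 0.941 and then 0.867, 0.821 and 0.947, at -0.08 ± 0.074 (limma adjusted p = 0.682), or -0.1306 to -0.0292 with 1 library left out. Neuroblast-like nuclei went the other way, at 0.248, 0.23 and 0.214 and then 0.443, 0.261 and 0.291, with no overlap and a difference of 0.47 ± 0.277 (limma adjusted p = 0.991) that was 0.25 without heterozygous replicate 1. Nr3c1 passed the filter on low values there only through the heterozygous libraries, where it was higher. That separation and its p-value are therefore a description.

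The mineralocorticoid receptor gene Nr3c2 stood at 2.89, 2.69 and 2.65 in the wild-type and 2.62, 2.91 and 2.55 in the heterozygous libraries in astrocyte-like nuclei, its highest tested class. They overlapped, at a log2 difference of -0.03 ± 0.0896 (limma adjusted p = 0.976) that turned above 0 without wild-type replicate 1 or heterozygous replicate 3. OPC-like nuclei held 0.961, 0.869 and 0.803 and then 1.89, 1.19 and 0.997, with no overlap, at 0.57 ± 0.233 (limma adjusted p = 0.899). Heterozygous replicate 1 was the highest there by a wide gap but held only 27 OPC-like nuclei, and without it the difference was 0.31. Over all nuclei Nr3c2 stood at 1.55, 1.57 and 1.43 and then 1.55, 1.72 and 1.52, at 0.07 ± 0.0794 (limma adjusted p = 0.71), or 0.0193 to 0.107 with 1 library left out. The gene overlaps Gm10649 on the opposite strand.

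**Figure D5:**
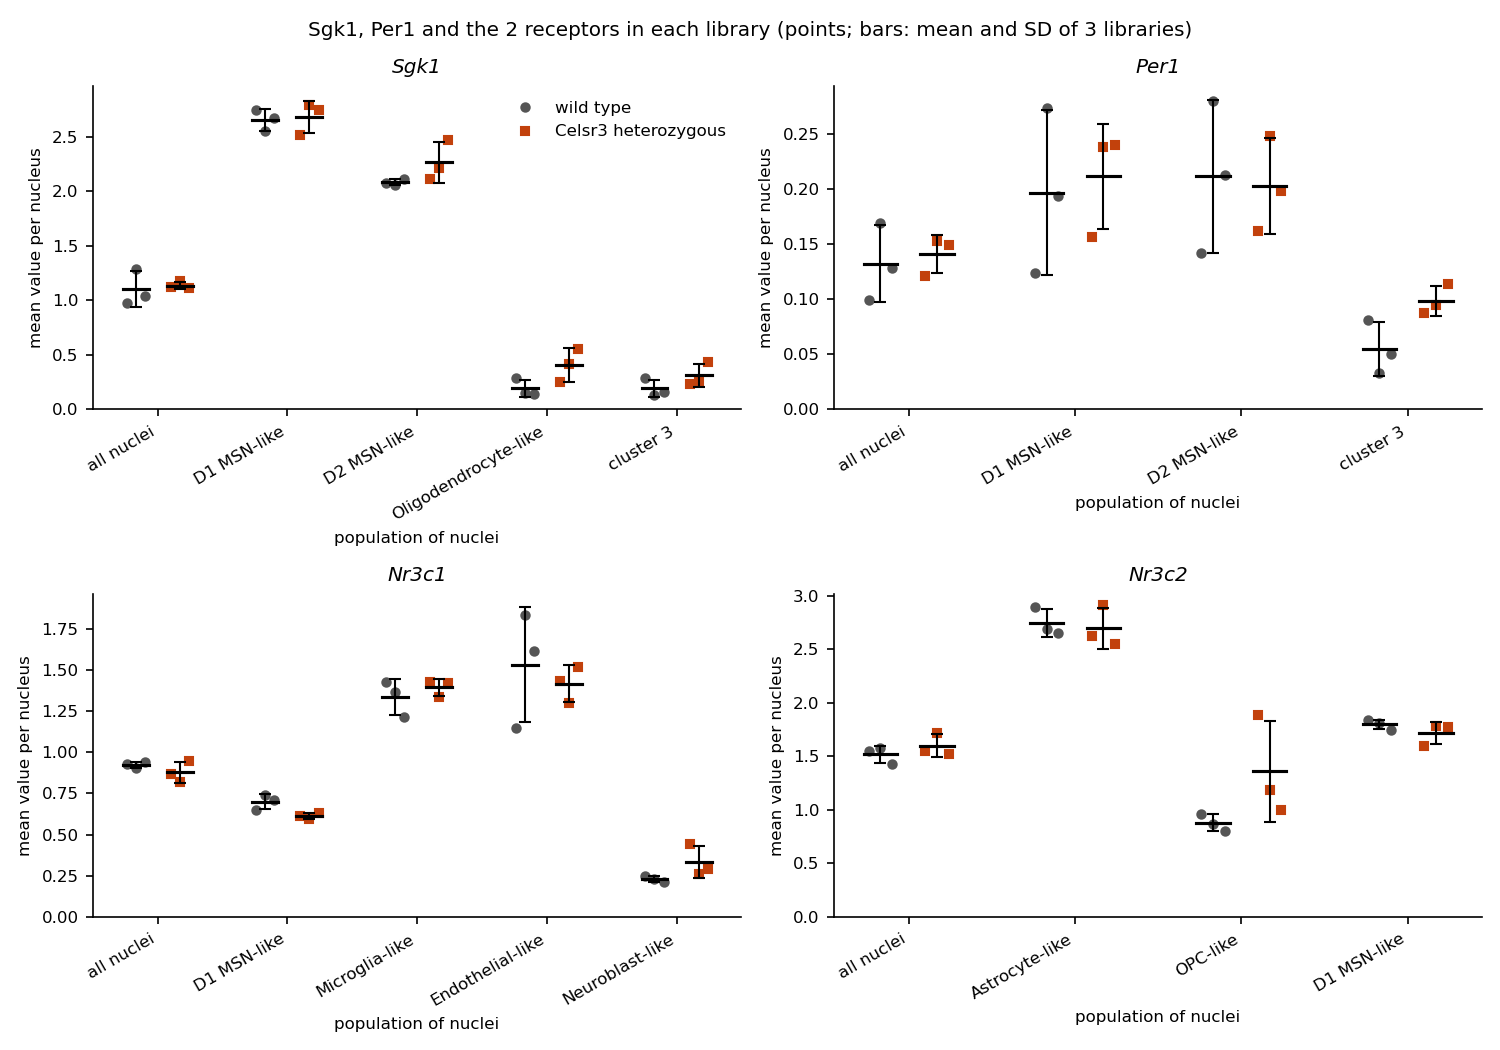
Sgk1, Per1, Nr3c1 and Nr3c2 as mean value per nucleus in each library, with wild-type libraries as circles, heterozygous libraries as squares, and bars for the mean and SD of 3 libraries. Nr3c1 separates by genotype in D1 MSN-like nuclei (lower in heterozygous libraries) and in neuroblast-like nuclei (higher), and the groups overlap for Sgk1 in every population drawn.

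Whether the genotype difference itself differed between D1 and D2 MSN-like nuclei was tested for the 8 genes past the filter in both, and none did (limma, 0.0236% of 12701 genes called). For Sgk1 the D1 difference was lower than the D2 difference by a log2 value of -0.10 ± 0.0476, the only unadjusted p under 0.05 (0.0448, limma adjusted p = 0.947). For Fkbp5 the classes differed by 0.0041 ± 0.0675 (limma adjusted p = 0.999) and for Errfi1 by 0.18 ± 0.106 (limma adjusted p = 0.947).

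Other genes of the same systems were counted in 4 lists over all nuclei, and no gene of any list passed an adjusted p of 0.05. Of 28 other glucocorticoid-responsive genes, 19 were tested and 15 were higher in heterozygous libraries, at a median log2 difference of 0.16 beside 0.07 over all genes. The only one with an unadjusted p under 0.05 was Bcl6, a transcriptional repressor, at 0.0803, 0.0789 and 0.0872 and then 0.0918, 0.108 and 0.104, which did not overlap (0.27 ± 0.0905, limma adjusted p = 0.464). Of 21 receptor chaperones, coregulators and hormone-handling genes, 20 were tested and 16 were higher, at a median of 0.08.

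All 18 circadian clock genes were tested and 13 were higher, at a median of 0.12. Nr1d2, a repressor of the clock loop, stood at 0.455, 0.314 and 0.292 and then 0.504, 0.516 and 0.411, which overlapped (0.44 ± 0.175, limma adjusted p = 0.491). Of 14 immediate early genes, 11 were tested and 10 were higher, at a median of 0.08. Junb, a subunit of the AP-1 transcription factor, stood at 0.0703, 0.112 and 0.106 and then 0.134, 0.115 and 0.136, without overlap (0.40 ± 0.168, limma adjusted p = 0.501). Over all nuclei 69.2% of all genes were higher, at a median of 0.07, and no list was tested against that background.

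Within classes the lists stood otherwise, again with no gene called. Of all genes, 65% were higher in heterozygous libraries in D1 and 60.4% in D2 MSN-like nuclei. In D1 MSN-like nuclei all 11 immediate early genes tested were higher in heterozygous libraries, at a median log2 difference of 0.25 beside 0.06 over all genes, and in D2 MSN-like nuclei 9 of 10 were, at 0.25 beside 0.04. The chaperone list had 18 of 18 higher in D1 (median 0.14) and 15 of 18 in D2 MSN-like nuclei (0.12). Clock genes had 14 of 17 (0.13) and 12 of 17 (0.12), and the other glucocorticoid-responsive genes 7 of 12 (0.09) and 7 of 10 (0.18).

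Elsewhere the counts and medians varied, and no difference between lists or populations was tested. Of all genes, 47.4% (neuroblast-like) to 59.5% (GABAergic interneuron-like nuclei) were higher in the populations named below. Their medians over all genes ran from -0.02 in neuroblast-like to 0.04 in OPC-like nuclei. The chaperone list had 15 of 19 higher in astrocyte-like (median 0.05), 15 of 18 in oligodendrocyte-like (0.05) and 14 of 17 in GABAergic interneuron-like nuclei (0.17), but 6 of 13 in OPC-like nuclei (-0.0012). Clock genes had 12 of 16 higher in astrocyte-like (0.06) and 12 of 14 in oligodendrocyte-like nuclei (0.11), but 9 of 18 in glutamatergic neuron-like (-0.0029) and 1 of 6 in neuroblast-like nuclei (-0.13). The other glucocorticoid-responsive genes had 9 of 12 higher in astrocyte-like nuclei (median 0.18) and 4 of 7 in oligodendrocyte-like nuclei (0.16). They had 2 of 6 higher in cluster 5 (-0.51), 2 of 5 in microglia-like nuclei (-0.11), 5 of 10 in glutamatergic neuron-like nuclei (-0.02), and none of the 3 tested in eccentric MSN-like nuclei (-0.08). Immediate early genes had 2 of 5 higher in both astrocyte-like (-0.0036) and oligodendrocyte-like nuclei (-0.10), 6 of 10 in glutamatergic neuron-like nuclei (0.15) and 3 of 4 in cluster 5 (0.23). In endothelial-like nuclei, described with no test, 0 of 3 immediate early genes were higher (median -0.25) and 1 of 9 clock genes (-0.13), while 6 of 8 other glucocorticoid-responsive genes were (0.22), beside a median of 0.01 over all genes.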

How the data were processed

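Nuclei of 3 wild-type and 3 Celsr3 heterozygous striatum libraries were prepared with 10x 3′ chemistry, per the labels' protocols. Cell Ranger, Seurat 4.1 and the build mm10 (GRCm38) are named in the submitters' processing notes, without their roles. The values deposited by the authors are taken to be a score, a count corrected for depth and then rounded, as read from their distribution. Totals per nucleus ran from 4523 to 10638 with a coefficient of variation of 10.7%, so the original depth is unknown, no count model was used and no counting intervals are given.

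The genes, the gene lists and the rule for named genes were chosen with earlier results of these data known. Clusters (45) came from 2000 variable genes, 30 principal components, 15 neighbours and Leiden clustering at resolution 1 (scanpy 1.11.5, igraph 0.11.9, Python 3.11.15). A cluster was called X-like when at least 3 markers were over 2-fold above other nuclei at a mean above 0.1 and 40% of the class's markers, or 1 among the top 10 genes, did so. Clusters led by a rival class stayed unnamed, as did clusters with MSN markers but Rgs9 below its mean. The limits were chosen once the clusters had been inspected. Scrublet scores above 0.25, and clusters with over 40% of such nuclei, removed 809 nuclei (1.66%), and 3585 kept nuclei (7.46%) lay in other unnamed clusters. Of the 9 genes, 2 (Zbtb16 and Tsc22d3) were among the variable genes.

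Library means were transformed as log2(mean + 0.01), a scale that understates changes of low genes, and tested with limma 3.58.1 (R 4.3.3, trended empirical Bayes), 3 against 3 libraries, no covariate, with Benjamini-Hochberg adjustment over all genes of a population. Genes needed a mean of 0.02 and a summed value averaging 30 per library, and classes 20 nuclei in every library. All adjusted p-values come from limma. The fit was tested on simulated data. Named were all 9 genes, the tested pairs with an unadjusted p under 0.05, the 3 most like genes, 8 further pairs chosen after their values were seen, and list genes with an unadjusted p under 0.05 in all nuclei; 2 genes that this rule names are not reported here. The 12 alternatives varied the pseudocount, filter, scaling, weights, block, libraries, doublets, depth matching, clustering genes and cluster weights. Promoter sequences are from RefSeq (GRCm38.p6) and overlaps of genes from GENCODE on GRCm38.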

Additional observations from a re-analysis of the deposited data

Results flagged for a closer look

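Klf9 and Nr3c1 went opposite ways in different classes, with no overlap between the genotypes in either class. The Klf9 log2 difference in neuroblast-like nuclei (-0.72, or -0.45 without heterozygous replicate 1) lay below that in eccentric MSN-like nuclei (0.35) by -1.07, below that in committed oligodendrocyte precursor-like nuclei (0.27, or 0.15 without wild-type replicate 3) by -0.99, and below that in mural-like nuclei (0.84), where the gene was picked, by -1.56. The Nr3c1 log2 difference in D1 MSN-like nuclei (-0.18) lay below that in neuroblast-like nuclei (0.47, or 0.25 without heterozygous replicate 1) by -0.66. In neuroblast-like nuclei Nr3c1 passed the filter on low values only through the heterozygous libraries, where it was higher. These differences between classes were not tested.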

How the results depend on the processing

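The number of the 9 genes called was 0 in each population (none of them passed the filter in cholinergic interneuron-like nuclei) and in 235 of 238 combinations of population and alternative. It was 1 (Fkbp5) in D1 and D2 MSN-like nuclei when array weights were used. With each library removed in turn the D1 MSN-like number ran from 0 to 1, the 1 being Fkbp5 without wild-type replicate 1. Of 642 alternative values for 40 pairs of gene and population, 608 kept their direction and side of the threshold and 31 changed sign, all from differences within the spread between libraries. Sgk1 turned to -0.0167 in all nuclei and -0.0407 in D1 MSN-like nuclei with size factors and, in the latter, to -0.012 after matching libraries on their genes per nucleus (matched nuclei). Leaving out single libraries gave it -0.0303 to 0.1713 in all nuclei (below 0 without wild-type replicate 1) and -0.0144 to 0.0599 in D1 MSN-like nuclei (below 0 without wild-type replicate 2, heterozygous replicate 2, or heterozygous replicate 3). Tsc22d3 turned in all nuclei to 0.0771 with matched nuclei and 0.091 with equal cluster weights, and ran from -0.3354 to 0.1371 with libraries left out (above 0 without heterozygous replicate 1). In oligodendrocyte-like nuclei it turned to 0.0124 with equal cluster weights and 0.0058 with clusters built without these genes, and ran from -0.2858 to 0.154 (above 0 without wild-type replicate 2, heterozygous replicate 1, or heterozygous replicate 2). Per1 ran from -0.0661 to 0.29 in all nuclei (below 0 without wild-type replicate 1). In D2 MSN-like nuclei it ran from -0.2782 to 0.1906 (above 0 without wild-type replicate 2 or 3, or heterozygous replicate 1) and turned to 0.0534 with matched nuclei. Zbtb16 in GABAergic interneuron-like nuclei ran from -0.1137 to 0.1678 (below 0 without wild-type replicate 2 or heterozygous replicate 1). Nr3c2 in astrocyte-like nuclei ran from -0.0852 to 0.0113 (above 0 without wild-type replicate 1 or heterozygous replicate 3) and turned to 0.0112 with array weights and 0.0256 with matched nuclei. Fkbp5 with libraries left out ran from -0.4915 to 0.0522 in neuroblast-like nuclei (above 0 without heterozygous replicate 1) and from -0.1391 to 0.3501 in GABAergic interneuron-like nuclei (below 0 without wild-type replicate 2 or heterozygous replicate 2). Errfi1 in cluster 3 ran from -0.019 to 0.4387 (below 0 without heterozygous replicate 3), and in microglia-like nuclei it turned to 0.054 with matched nuclei. The cause was not tested. The Klf9 difference in endothelial-like nuclei moved to 0.53 and the Nr3c1 difference in D1 MSN-like nuclei to -0.10 with matched nuclei. A pseudocount of 0.1, which shrinks differences of low genes, gave Errfi1 0.19 over all nuclei, 0.16 for astrocyte-like nuclei, 0.21 for D1 MSN-like nuclei and 0.42 for cluster 5, Fkbp5 0.50 in oligodendrocyte-like nuclei and Per1 0.37 in cluster 3. With the replicate number as a block, 0 of the 9 genes were called in each of the 14 populations fitted. Deviations of same-numbered libraries had r = -0.04, 0.142 and -0.071, and those of differently numbered libraries ran from -0.15 to 0.184. The labels do not say whether the numbers pair the samples, and so few values cannot decide it. Some pairs fell below the filter or had too few nuclei under an alternative and have no value there. With 3 libraries per genotype and unknown depth, differences of low genes have wide errors.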
